A study of Mus musculus with 2 samples.

Results

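Antibody transcripts in transplanted mouse hearts were examined through 10 genes, namely the heavy chain constant genes Ighm, Ighd, Ighg1, Ighg2c and Igha, the light chain constant genes Igkc, Iglc1, Iglc2 and Iglc3, and Jchain. They were taken by name from the 22337 gene symbols of the expression table. scRNA-Seq had been performed on cells isolated from Bm12 hearts 14 days after heterotopic transplantation into C57BL/6 (B6) recipients. Bm12 donors carry an altered I-A class II molecule on the B6 background, so donor and recipient shared the genes studied here and the transcripts of the 2 sides cannot be told apart. Donors of the IL-33+ group were Bm12 with intact Il33 (labelled BM12 WT, hearts 1 to 3), and donors of the IL-33- group were Bm12 Il33-/- mice obtained by backcrossing (labelled BM12 IL33 KO, hearts 4 to 6). Recipients in both groups had intact Il33, and donors and recipients were male. The 6 hearts were hashtagged and run as 1 pooled library.

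An antibody consists of heavy chains, whose constant gene sets the isotype, and light chains of the kappa (Igkc) or lambda (Iglc1, Iglc2, Iglc3) kind. A naive B cell makes IgM and IgD by splicing the same heavy chain transcript to Ighm or Ighd, and a B cell that has switched class has joined its variable region to a downstream gene such as Ighg1, Ighg2c or Igha. Plasma cells make these transcripts in very large amounts together with Jchain, which links IgM and IgA into polymers. In organ transplantation, B cells are known both as precursors of donor-specific antibody and as antigen-presenting cells.

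The heavy chain genes lie on the minus strand of chromosome 12 in the GENCODE annotation of GRCm38, the build of the files, from Ighm (chr12:113418558-113422730) through Ighd, Ighg1 and Ighg2c to Igha (chr12:113254830-113260236). Igkc is at chr6:70726435-70726966 on the plus strand and Jchain at chr5:88519809-88527891 on the minus strand. The lambda genes are on chromosome 16 on the minus strand. Iglc2 and Iglc3 were 96.5% identical over their coding bases, against 74.8% for Iglc1 with Iglc2 and 75.4% for Iglc1 with Iglc3. Because UMIs of Iglc2 and Iglc3 are set apart below, the coding stretch of 240 bases that holds all 11 positions at which they differ is shown, read 5′ to 3′ on the coding strand from the GRCm38 genome of RefSeq, with those 11 positions in capitals. Iglc2 spans chr16:19198596-19198835 and Iglc3 spans chr16:19065425-19065664.
Iglc2: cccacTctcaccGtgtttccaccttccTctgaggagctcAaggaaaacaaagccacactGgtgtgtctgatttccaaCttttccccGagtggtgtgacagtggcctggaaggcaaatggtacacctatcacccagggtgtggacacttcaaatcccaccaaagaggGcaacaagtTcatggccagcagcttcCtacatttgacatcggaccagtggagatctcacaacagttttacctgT
Iglc3: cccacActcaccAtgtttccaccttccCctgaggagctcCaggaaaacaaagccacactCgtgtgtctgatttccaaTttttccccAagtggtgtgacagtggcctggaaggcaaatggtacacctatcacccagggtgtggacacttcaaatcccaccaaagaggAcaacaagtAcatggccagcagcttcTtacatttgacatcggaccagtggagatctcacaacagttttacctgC
No stretch of 91 bases was shared between the constant exons of the 3 lambda genes. Reads shorter than that, or reads that match both genes, could still be lost or split between Iglc2 and Iglc3, so their separate levels are less certain than their sum.

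The table held 4441 cells in 14 annotated types, with 230 to 1666 cells and 908138 to 7012961 unique molecular identifiers (UMIs, 1 per captured transcript molecule whatever its length) per heart. Il33 UMIs in fibroblasts numbered 7, 0 and 121 in the IL-33+ hearts and 9, 3 and 5 in the IL-33- hearts, so the transcript did not separate the labelled groups. B cells numbered 45, 26 and 105 in IL-33+ hearts and 91, 4 and 15 in IL-33- hearts, so that heart 5, with 4 B cells, weighed as much as any other heart in the comparisons below. Their median depth was 2292 UMIs per cell, against 3818 in the other cells. All 10 B cell markers examined were highest in the annotated B cells. Ms4a1, which encodes CD20, reached 851 CPM there (UMIs scaled to the same total in each cell) and 19.3 CPM in unconventional T cells, the next type. Hemoglobin transcripts, an erythroid sign, summed to 14296 CPM in the B cells of heart 2 and 17208 CPM in those of heart 6, against 66.6 to 421 CPM in the other 4 hearts.

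Across the 14 types, 8 of the 10 genes were highest in B cells, and the exceptions were Ighg1 and Ighg2c. Ighm and Igkc were the 2 most abundant, at 2937 CPM and 3287 CPM over all B cells. Ighd followed at 486 CPM, Iglc2 at 371 CPM, Iglc3 at 117 CPM and Iglc1 at 63.5 CPM. The lowest heart of the B cells exceeded the highest heart of each of the 13 other types for Ighm, Ighd, Igkc and Iglc2, whereas for the other 6 genes the hearts of B cells overlapped those of some other types. The annotation was built from expression of all genes, these included, so this order is a description and was not tested.

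**Figure D1:**
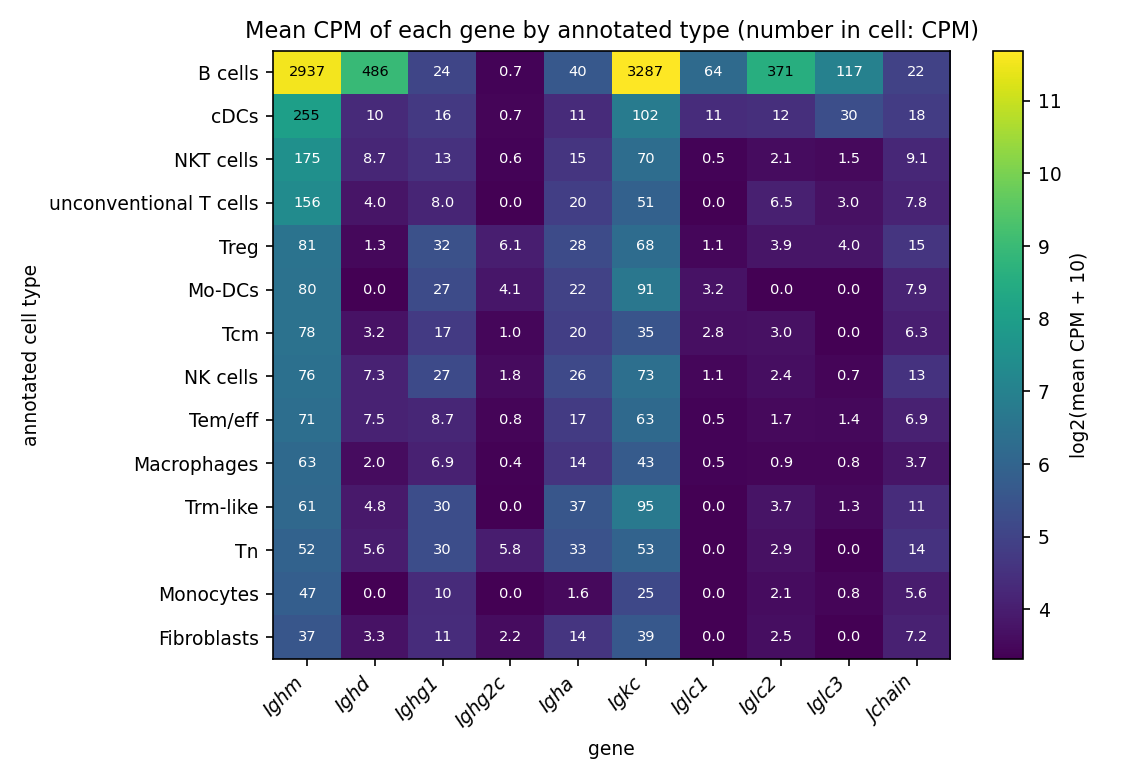
Mean CPM over all cells of each annotated type (rows, ordered by Ighm) for the 10 genes (columns), with the CPM printed in each cell and the color on the scale log2(mean CPM + 10). B cells stand apart for Ighm (2937 CPM) and Igkc (3287 CPM), whereas Ighg1, Ighg2c, Igha and Jchain stay at or below 39.5 CPM in each type.

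Ighm, the constant gene of IgM, was carried by nearly all B cells. Its mean level was 3076, 2659 and 3134 CPM in the B cells of the IL-33+ hearts and 2798, 1786 and 2778 CPM in those of the IL-33- hearts. The values of hearts 4 and 6 lay between those of hearts 1 to 3, and the low value belonged to heart 5. The difference on the scale log2(mean CPM + 10) was 0.29 ± 0.18 (SE, n = 3 hearts per group), with an adjusted p of 0.844 by limma, and it fell to 0.08 without heart 5. A UMI of Ighm was found in 272 of 286 B cells, or 95.1% (exact 95% interval 91.9% to 97.3%). When every cell was thinned to 1500 UMIs, the shallowest depth in the table, the share was 91.4% of B cells and 9.75% of the other cells. In fibroblasts, which should not make IgM, it was 4.35% after thinning and 14.7% before, at a median depth of 5789 UMIs.

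Ighd, the constant gene of IgD, reached 352, 469 and 519 CPM in B cells of IL-33+ hearts and 556, 242 and 314 CPM in those of IL-33- hearts. The highest and the lowest heart were both IL-33-, and the groups overlapped (log2 difference 0.33 ± 0.32, adjusted p = 0.858 by limma). The difference was 0.07 without heart 5 and 1.85 without B cells that held a T cell, macrophage or NK cell marker (adjusted p = 0.552 by limma). Leaving out those cells also moved the median log2 difference over all genes tested, from 0.28 to 0.60. Ighm and Ighd were found together in 151 B cells and Ighm without Ighd in 121, while 9 held Ighd without Ighm and 5 held neither. Ighd made up 8.65%, 12.9% and 13.6% of the pooled Ighm and Ighd UMIs in IL-33+ hearts and 14.2%, 12% and 8.97% in IL-33- hearts. The group means were equal to the first decimal at 11.7% ± 2.70 and 11.7% ± 2.64 (SD, n = 3 each; exact two-sided permutation p = 1).

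Among light chains, kappa dominated. Igkc stood at 2470, 3511 and 3708 CPM in B cells of IL-33+ hearts and at 3262, 2071 and 2889 CPM in those of IL-33- hearts, with overlapping groups (log2 difference 0.24 ± 0.18, adjusted p = 0.844 by limma, and 0.05 without heart 5). Igkc UMIs outnumbered the summed lambda UMIs in 247 of 286 B cells, or 86.4% (exact 95% interval 81.8% to 90.1%). Lambda outnumbered kappa in 22 cells, the counts were equal in 9, and 8 cells held neither. Lambda UMIs made up 15.7%, 9.70% and 19.5% of the light chain UMIs in B cells of IL-33+ hearts and 14.7%, 3.57% and 8.62% in those of IL-33- hearts. The groups overlapped, and the means of 15% ± 4.92 and 8.97% ± 5.59 gave an exact two-sided permutation p of 0.2. Their difference of 5.98 percentage points ran from 3.28 without heart 5 to 8.86 without heart 4.

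A B cell normally expresses 1 kind of light chain, but UMIs of both kinds were common in the same droplet. Of the 195 B cells with 5 or more Igkc UMIs, 95 also held a lambda UMI. In all, 138 B cells held Igkc and no lambda UMI, 11 held lambda and no Igkc UMI, and 129 held both. The part of free RNA and of droplets with more than 1 cell in these mixed counts was not tested.

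**Figure D2:**
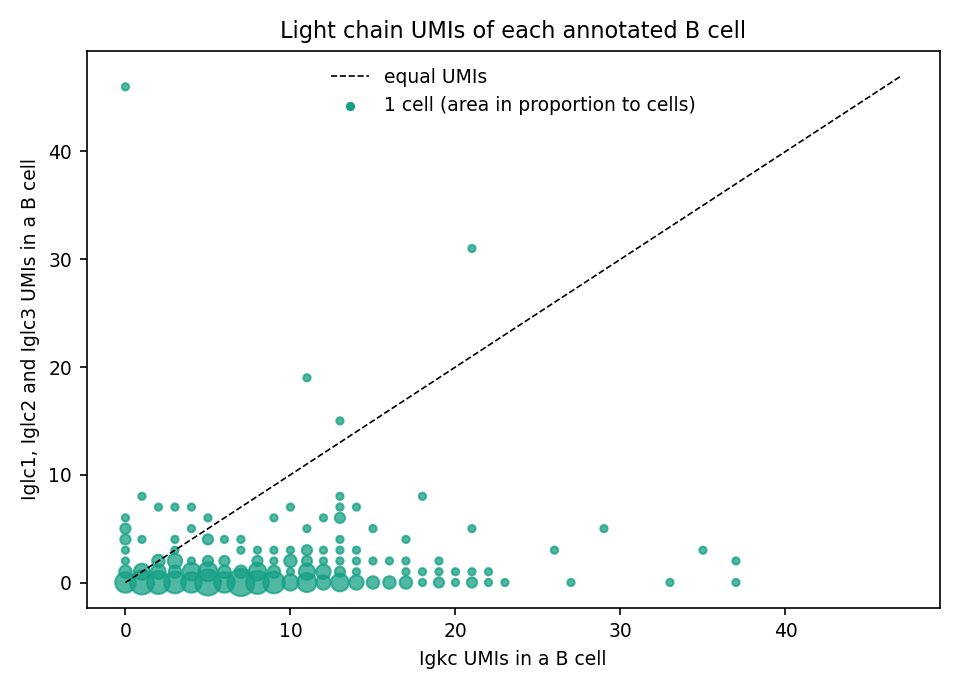
Igkc UMIs (x axis) against the summed Iglc1, Iglc2 and Iglc3 UMIs (y axis) in each of the 286 B cells, with point area in proportion to the number of cells at that position and a dashed line of equal counts. Most cells lie along the x axis below the line, and 1 cell stands at 46 lambda UMIs and 0 Igkc UMIs.

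The lambda levels rested in part on few cells. Of 286 B cells, 4 held 15 or more lambda UMIs, and they came from heart 3 (2 cells) and heart 4 (2 cells). The highest of them held 34 UMIs of Iglc2, 7 of Iglc1, 5 of Iglc3, 43 of Ighm and none of Igkc. Another, from heart 4, held 12 UMIs of Iglc3 against 2 of Iglc2 and 5 of Iglc1. Without these 4 cells the lambda share fell from 19.5% to 15.2% in heart 3 and from 14.7% to 9.69% in heart 4.

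Each lambda gene had a higher mean in B cells of IL-33+ grafts, and none passed the test. Iglc1, the constant gene of the lambda 1 chain, stood at 61.5, 40.5 and 110 CPM in IL-33+ hearts and at 28.3, 0 and 16.3 CPM in IL-33- hearts. All 3 IL-33+ hearts were above all 3 IL-33- hearts (log2 difference 1.81 ± 0.89, adjusted p = 0.844 by limma). With UMIs summed per heart instead of averaged over cells the groups overlapped, and the difference ran from 0.86 to 3.05 over the alternatives run. Iglc2, the most abundant lambda gene, stood at 322, 266 and 506 CPM in IL-33+ hearts and at 301.6, 47.2 and 268 CPM in IL-33- hearts. There the groups overlapped, and the log2 difference of 1.08 ± 0.47 (adjusted p = 0.844 by limma) fell to 0.29 without heart 5.

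Iglc3 stood at 86.2, 34.0 and 211 CPM in B cells of IL-33+ hearts and at 73.0, 0 and 0 CPM in those of IL-33- hearts. Heart 4 lay above heart 2, so the groups overlapped, and no Iglc3 UMI was found in the 19 B cells of hearts 5 and 6. The log2 difference was 2.27 ± 0.95 with heart 5 and 1.76 without it, and the adjusted p was 0.844 and 0.886 by limma. In B cells Iglc2 UMIs outnumbered those of Iglc3 by 2.95 to 1.

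The switched isotypes were scarce in B cells, with counts that overlapped those of the other types. Ighg1, the constant gene of IgG1, gave 5.59 UMIs per 100 B cells and 3.73 to 11.7 per 100 cells in the 13 other types, macrophages being lowest and cDCs highest. Igha, the constant gene of IgA, gave 9.44 UMIs per 100 B cells, within the range of 1.30 to 18.1 elsewhere. After thinning to 1500 UMIs, Ighg1 was found in 3.44% of B cells and 0.990% to 4.32% of the cells of other types, and Igha in 5.17% of B cells and 0.241% to 4.73% elsewhere, so that for Igha B cells then stood just above the other types. Ighg2c, an IgG2 constant gene, was found as 1 UMI in 1 B cell of heart 1 and in 26 of the 4155 other cells. Types that do not make antibody held these UMIs too, so they are not read here as a sign of switched B cells.

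By heart, Ighg1 stood at 49.2, 0 and 21.0 CPM in B cells of IL-33+ hearts and at 20.2, 131 and 0 CPM in those of IL-33- hearts. The value of 131 CPM in heart 5 came from 1 UMI. Igha stood at 74.2, 15.9 and 36.9 CPM in IL-33+ hearts and at 34.2, 142 and 0 CPM in IL-33- hearts, again with heart 5 at the top from 3 UMIs in 1 cell. The log2 differences were -0.41 ± 0.99 and 0.20 ± 0.96, with adjusted p of 0.947 and 0.973 by limma, and without heart 5 they were 0.60 and 1.15.

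A UMI of Ighg1, Ighg2c or Igha was found in 36 of 286 B cells, or 12.6% (exact 95% interval 8.97% to 17.0%), and 33 of these 36 cells also held Ighm. Thinned to 1500 UMIs, the share was 16.9%, 2.38% and 7.90% in B cells of IL-33+ hearts and 7.56%, 35.5% and 0% in those of IL-33- hearts. The groups overlapped (exact two-sided permutation p = 0.9), and the difference between the group means turned from -5.30 to 5.27 percentage points when heart 5 was left out.

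Jchain, which links antibody polymers, was likewise scarce. It gave 4.90 UMIs per 100 B cells and 2.45 to 17.5 per 100 cells in the other types, and after thinning it was found in 2.80% of B cells and 0.556% to 2.03% of the cells of other types. In B cells it stood at 18.0, 48.0 and 30.3 CPM in IL-33+ hearts, from 12 UMIs, and at 10.8, 0 and 0 CPM in IL-33- hearts, from 2 UMIs. All 3 IL-33+ hearts were above all 3 IL-33- hearts. The log2 difference was 1.66 ± 0.77 (adjusted p = 0.844 by limma).

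No cell gave a large part of its UMIs to antibody genes. The 10 genes together gave 0.735% of the UMIs of a B cell on average and 2.21% in the highest, and no cell of any type reached 5%. Of the other cells, 1 NKT cell passed 1%, at 1.07%. The plasma cell genes Tnfrsf17, which encodes BCMA, and Derl3 had no UMI in B cells, whereas the other 6 of the 8 plasma cell markers examined did. The 8 markers summed to 573 CPM in B cells and 639 CPM in monocytes, the highest other type. Cells with 3 or more of them made up 4.90% of B cells, against 0.412% to 1.14% in NK cells, Tn, Treg, Trm-like cells and Mo-DCs, whose median depth was near that of B cells. In the deeper types the share ran from 0% in Tcm to 15.7% in unconventional T cells, with 0.576% in NKT cells, 4.80% in fibroblasts and 10.4% in monocytes. The study kept cells with limited UMI and gene numbers, and the deepest cell here had 14977 UMIs, so cells beyond that range were not analysed here.

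Of the other antibody genes in the table, Ighe had no UMI in any cell, Ighg2b had 2 in B cells and Iglc4 had 1. Ighg3 had 17 UMIs in B cells, all in 1 cell of heart 3 that also held 15 UMIs of Igkc and 8 of Ighm. That cell was picked out after its values were seen. The 50 variable segments listed in the table gave 13 UMIs in B cells, so clonal relations could not be followed.

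Between graft groups, none of the 9 genes tested in B cells was called at an adjusted p of 0.05 by limma, where 0% of the 7013 genes tested were called. Ighg2c was too rare to test. At an unadjusted p of 0.05, 3 of the 9 (Iglc2, Iglc3 and Jchain) were higher in IL-33+ grafts, against 3.56% of all genes tested. In 2 of the 9 (Iglc1 and Jchain) all IL-33+ hearts were above all IL-33- hearts, as were 7.03% of all genes. A log2 difference above 0 was found for 8 of the 9 and for 65.5% of all genes. Among IL-33- hearts, Iglc3 and Jchain had UMIs in heart 4 alone, and Iglc1 in hearts 4 and 6. These genes thus met the filter of a UMI in 3 hearts only through IL-33+ hearts, and the counts are not read as support for a difference. The median log2 difference was 0.33 over the 9 genes and 0.28 over all genes tested, and the latter was 0.04 without heart 5 and 0.58 when libraries were scaled by their upper quartile. Under that scaling the differences of Ighm, Ighd and Igkc were 0.81, 0.82 and 0.75. With UMIs summed per heart the hearts overlapped for Iglc1 but not for Jchain. On the limma-voom scale they overlapped for both genes. That scale adds an offset to each count, which lifts a count of 0 most in a small library such as heart 5, with 14057 UMIs in B cells. The overlap of Jchain on that scale is therefore not read as a result about the hearts.

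**Figure D3:**
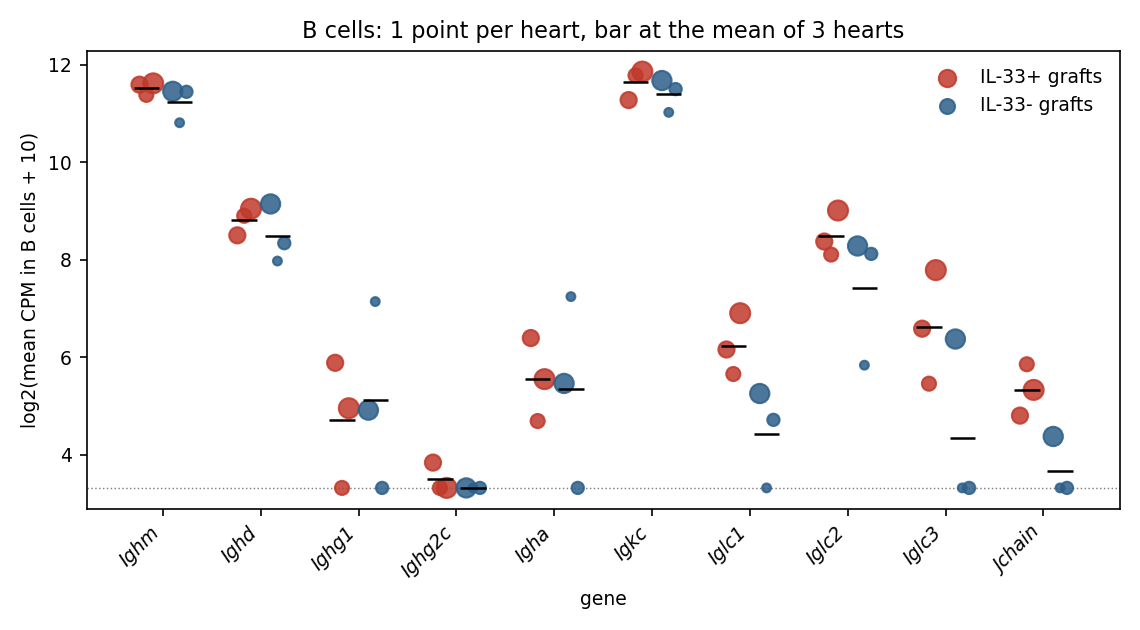
Level of each gene in the B cells of each heart on the scale log2(mean CPM + 10), with IL-33+ hearts in red, IL-33- hearts in blue, point area rising with the number of B cells, bars at the mean of 3 hearts and a dotted line at 0 CPM. The smallest blue point is heart 5 with 4 B cells, which is the lowest heart for Ighm (1786 CPM) and the highest for Ighg1 (131 CPM).

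Over both groups, the B cells made up 5.2%, 11.3% and 6.30% of the cells of IL-33+ hearts and 10.9%, 1.41% and 2.68% of those of IL-33- hearts (exact two-sided permutation p = 0.5). Igkc over all cells was 177, 454 and 300 CPM in IL-33+ hearts and 415, 89.4 and 133 CPM in IL-33- hearts, highest in hearts 2 and 4, which also had the highest share of B cells in their group. Its level over cells outside B cells was 51.5, 64.9 and 70.5 CPM against 67.7, 61.1 and 56.8 CPM, a narrow range that the groups shared (exact two-sided permutation p = 1). Of the 44 values per heart tested in this way, 4 reached the smallest p that 3 hearts against 3 allow, 0.1, and all had an adjusted p of 0.704 or more. The 4 were the shares of B cells with Iglc1 and with Jchain and the share and level of Iglc3 in cells outside B cells. Such a p means that the groups of hearts did not overlap, which in the fits per type held for 9.82% of all genes. The 4 are therefore not read as differences between the groups.

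Outside B cells, Ighm was highest in cDCs (255 CPM), NKT cells (175 CPM) and unconventional T cells (156 CPM) and lowest in fibroblasts (36.7 CPM). The heart values of cDCs ran from 37.2 to 563 CPM, those of NKT cells from 53.8 to 322 CPM and those of unconventional T cells from 0 to 320 CPM, so these neighbors did not differ beyond their spread. A single cell gave 71 of the 152 Ighm UMIs of unconventional T cells. Igkc was 102 CPM in cDCs and 25.1 to 95.0 CPM in the other 12 types. Ighd, Iglc1 and Iglc2 were at 12 CPM or less in each type outside B cells.

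The ratio of Ighm to Igkc differed between types. Ighm made up 49.1% of the pooled Ighm and Igkc UMIs in B cells (exact 95% interval 47.7% to 50.6%, counting error only). Among cells with no UMI of Cd79a, Cd79b or Ms4a1, which mark B cells, and without Siglech and Ccr9 together, the share was 50.5% in NK cells (44.9% to 56.0%) and 51.4% in Tregs (41.6% to 61.1%). It was 76.6% in NKT cells (71.0% to 81.6%) and 84.7% in unconventional T cells (73.0% to 92.8%). In the remaining types it ran from 42.1% in Mo-DCs to 69.1% in Tcm, with 64.4% in macrophages, 65.3% in cDCs and 65.8% in monocytes. Median depth in these cells was 2707 UMIs in NK cells, 2854 in Tregs, 5758 in NKT cells and 9548 in unconventional T cells. The part of depth in the share was not tested. By heart, the share in NKT cells was 75%, 94.7% and 80.7% in IL-33+ grafts and 82.6%, 72.7% and 60% in IL-33- grafts, and in NK cells 52.2%, 37.5% and 52.7%, and 48.1%, 57.1% and 42.5%. NKT cells were above NK cells in each of the 6 hearts.

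**Figure D4:**
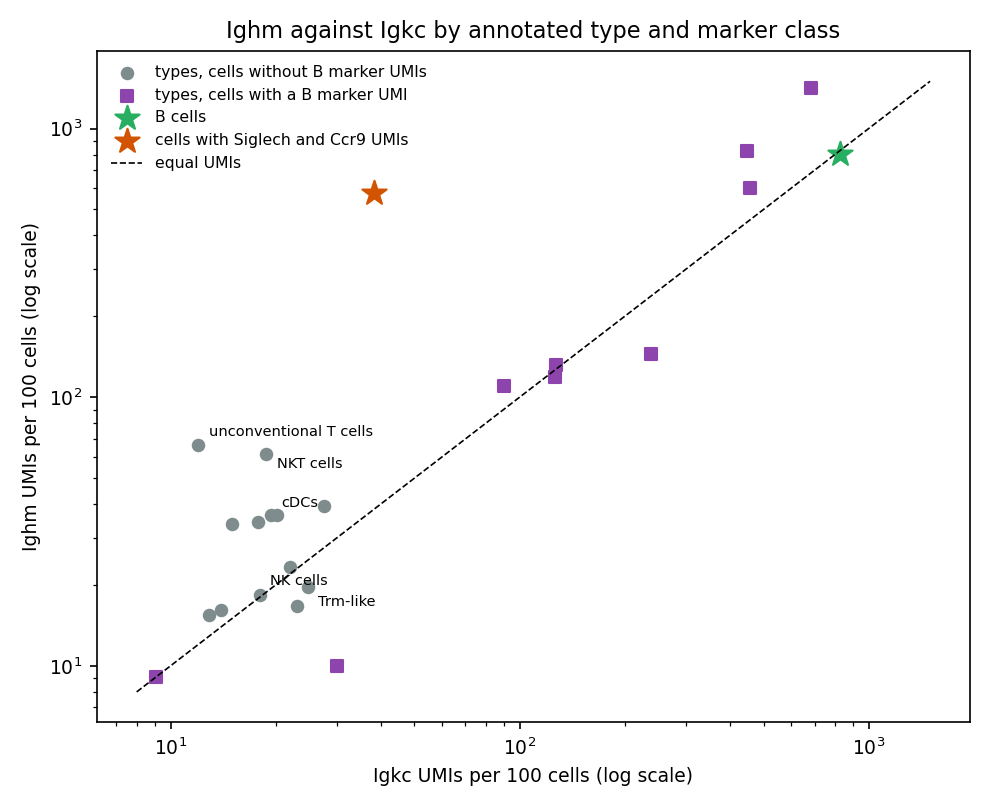
Igkc UMIs per 100 cells (x axis, log scale) against Ighm UMIs per 100 cells (y axis, log scale), for each annotated type outside B cells split into cells without (gray circles) and with (purple squares) a B cell marker UMI, and for B cells and cells with Siglech and Ccr9 UMIs as stars. Groups with 0 UMIs of either gene are not drawn. B cells lie on the dashed line of equal UMIs, whereas the Siglech and Ccr9 cells lie far above it, with Ighm at 93.8% of both.

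Cells outside the B cell annotation that held a B cell marker UMI were few, and in some types they were rich in antibody transcripts. They numbered 2 to 31 per type, with a median depth of 4503 UMIs, and together gave 511 UMIs of Ighm and 378 of Igkc. The 3896 cells without such markers, and without Siglech and Ccr9 together, gave 1112 UMIs of Ighm and 747 of Igkc. NKT cells, unconventional T cells and cDCs gave 189, 85 and 84 of the 511 Ighm UMIs. In Tn, Treg, Trm-like cells and Mo-DCs, cells with a marker held no more Ighm than cells without, at 0 to 18.2 against 16.1 to 23.2 UMIs per 100 cells. Whether the former were droplets that took up a B cell was not tested.

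Ighm and Iglc3 were found with little Igkc in a small set of cells, most of them annotated cDCs. These were 34 cells with UMIs of both Siglech and Ccr9, which are known markers of plasmacytoid dendritic cells. Of them 28 were annotated cDCs, and the others were 2 Mo-DCs, 2 unconventional T cells, 1 macrophage and 1 NK cell. This pair of genes was chosen after the values were seen. All 28 held at least 2 of 3 further markers of that cell type, Bst2, Tcf4 and Irf8, and 23 held all 3. How often the other cDCs held them was not computed. Siglech, Ccr9 and these 3 together were highest in NK cells, at a summed 2911 CPM, so the count alone does not name the cells. All 28 held Ighm, with 1 to 16 UMIs each and a median of 6, and 11 held Iglc3, with up to 8 UMIs. In sum they gave 165 UMIs of Ighm, 33 of Iglc3, 23 of Jchain, 12 of Igkc, 10 of Igha, 5 of Ighd, 1 of Iglc2 and none of Iglc1. Ighm was found in each of the 5 hearts that held such cells, but heart 3 gave 28 of the 33 Iglc3 UMIs and 8 of the 11 cells with Iglc3. The Iglc3 to Iglc2 order was the opposite of that in B cells, where Iglc2 gave 295 UMIs and Iglc3 100.

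Their depth was like that of the other 143 cDCs, with a median of 6806 against 6478 UMIs. Ighm stood at 878 CPM in the 28 cells and 132 CPM in the other cDCs. Iglc3 stood at 175 CPM and 2.04 CPM, and without heart 3 at 82.9 CPM, from 5 UMIs in 13 cells, and 1.49 CPM. Ighm without heart 3 was 904 CPM and 61.3 CPM. Igkc stood at 69.7 CPM and 109 CPM. After thinning to 1500 UMIs, Ighm was found in 69.4% of the 28 cells and 10.4% of the other cDCs, Iglc3 in 19.2% and 0.306%, and Igkc in 9.58% and 8.06%. Igkc was thus found about as often in both, whereas Ighm and Iglc3 were more frequent in the 28 cells. Igha, at 5.45% against 0.691%, and Jchain, at 6.43% against 0.897%, were more frequent there too. Without heart 3, Igha was at 1.66% against 0.221% and Jchain at 1.92% against 0.616%, each from 1 UMI in the 13 cells.

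A UMI of these B cell markers was present in 5 of the 28 cells and in 14 of the other 143. The 23 cells without any still gave 124 UMIs of Ighm, 22 of Iglc3 and 10 of Igkc. The 34 cells accounted for 35 of the 54 Iglc3 UMIs outside B cells. The cell with the most Jchain in the table, at 19 UMIs where the next had 3, was in this set. It came from heart 3 and held 10 UMIs of Ighm, 5 of Igha and none of Igkc or Cd79a, with 12 of Siglech, 3 of Ccr9 and none of the 8 plasma cell markers. Without it, Jchain in cDCs fell from 18.0 to 8.79 CPM.

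In cells annotated cDCs, Ighm was higher in IL-33+ grafts but did not pass the test. It stood at 223, 324 and 563 CPM in IL-33+ hearts and at 117, 37.2 and 90.5 CPM in IL-33- hearts, and all 3 IL-33+ hearts were above all 3 IL-33- hearts. The log2 difference was 2.07 ± 0.40 with an adjusted p of 0.122 by limma, where 0% of the 7951 genes tested in cDCs were called. Iglc3 stood at 19.5, 27.6 and 89.6 CPM in IL-33+ hearts and at 3.54, 0 and 6.52 CPM in IL-33- hearts, also without overlap (log2 difference 1.88 ± 0.62, adjusted p = 0.564 by limma). Both had an unadjusted p under 0.05 in favor of IL-33+ grafts, as did 3.89% of all genes in cDCs, and groups without overlap in that direction were found for 7.34%. All 7 genes tested in cDCs had a log2 difference above 0, against 54.7% of all genes. Heart 3 gave 13 of the 15 Igha UMIs and 9 of the 12 Iglc2 UMIs in cDCs. It also gave 29 of the 35 Iglc3 UMIs and 26 of the 30 Jchain UMIs. These genes reached 10 UMIs, which the filter required, only with heart 3. Their sign was thus partly set by the filter, and the count is not read as support for a difference.

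The makeup of the annotated cDCs differed between hearts as well. Siglech and Ccr9 cells made up 18.4%, 16.7% and 34.1% of the cDCs of IL-33+ hearts (7 of 38, 1 of 6 and 15 of 44 cells) and 6.25%, 0% and 7.69% of those of IL-33- hearts (3 of 48, 0 of 9 and 2 of 26). The groups did not overlap. The pair of genes was chosen after the values were seen, and each of these cells held Ighm. Leaving them out is therefore no test of their part in the difference, which was not tested. Without these cells, Ighm stood at 92.8, 123 and 412 CPM in IL-33+ hearts and at 42.6, 37.2 and 52.0 CPM in IL-33- hearts. When cells with a B cell marker were left out too, the values were 88.8, 123 and 18.3 CPM and 27.5, 37.2 and 51.3 CPM. The groups then overlapped, with heart 3 the lowest instead of the highest. Iglc3 without the Siglech and Ccr9 cells was 0, 0 and 4.21 CPM against 0, 0 and 7.07 CPM.

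**Figure D5:**
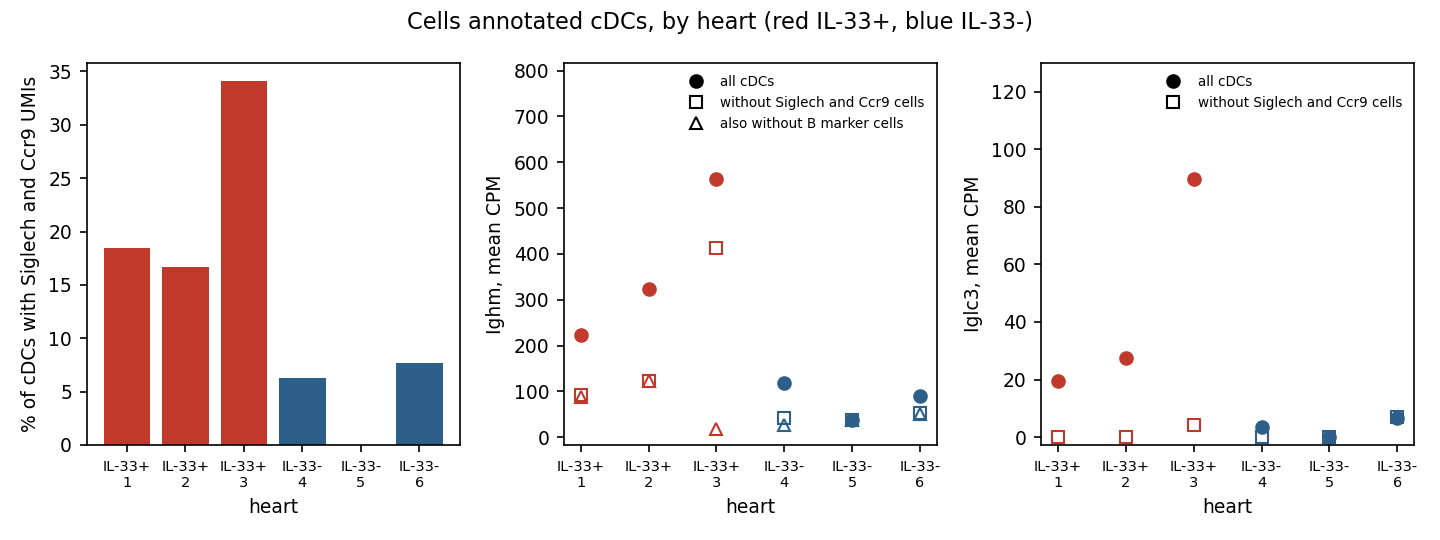
Cells annotated cDCs in each heart, with IL-33+ hearts in red and IL-33- hearts in blue. Bars give the percentage of cDCs with Siglech and Ccr9 UMIs, and points give mean CPM of Ighm and Iglc3 in all cDCs (filled), without the Siglech and Ccr9 cells (squares) and, for Ighm, also without cells with a B cell marker (triangles). Ighm of heart 3 falls from 563 to 412 and then to 18.3 CPM.

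In the 12 other types outside B cells, no gene of the set was called either. The share of all genes called by limma was 0.0187% in fibroblasts, 0.0702% in Mo-DCs, 0.014% in monocytes, 0.0128% in Trm-like cells and 0.0272% in unconventional T cells, and 0% in the other 7. Over the 14 types, 71 combinations of gene and type could be tested, since Ighm and Igkc passed the filter in all 14 types and Iglc1 in B cells alone. In 7 of the 71 the hearts of the groups did not overlap (9.86%, against 9.82% of all genes), and 6 had an unadjusted p under 0.05 (8.45%, against 4.71%). The 6 were Iglc2, Iglc3 and Jchain in B cells, Ighm and Iglc3 in cDCs and Ighm in fibroblasts. Of these, Iglc3 in both types and Jchain met the filter only through IL-33+ hearts. In fibroblasts Ighm was 67.8, 167 and 29.1 CPM in IL-33+ hearts and 57.5, 0 and 27 CPM in IL-33- hearts, and the highest and lowest values came from hearts with 6 and 4 fibroblasts (adjusted p = 0.998 by limma).

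The B lineage genes around the antibody genes gave no call in B cells. Of 12 B cell identity genes, all tested, 11 had a log2 difference above 0, with a median of 0.34 against 0.28 over all genes. Ly6d, a surface protein of the lymphoid lineage, was 588, 730 and 556 CPM in IL-33+ hearts and 438, 47.2 and 452 CPM in IL-33- hearts (log2 difference 1.47 ± 0.48), and Pax5, the factor that maintains B cell identity, was lowest of the list at -0.05 ± 0.32. Spib was at 1.39 and Cd37 at 0.06. Of 14 genes of the B cell receptor complex and its signaling, 8 were above 0, with a median of 0.20. Ptpn6, a phosphatase that restrains the receptor, and Pik3ap1 were highest at 1.89 ± 0.71 and 1.54 ± 0.74, both with 0 CPM in heart 5, and Blnk and Fcgr2b were lowest at -0.60 ± 0.34 and -0.52 ± 0.73. The lowest adjusted p in either list was 0.844 by limma.

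Of 15 plasma cell and secretion genes, 12 could be tested and 7 were above 0, with a median of 0.16. Xbp1, the factor that expands the secretory apparatus, was 305.1, 178 and 123 CPM in IL-33+ hearts and 123, 0 and 117 CPM in IL-33- hearts, and Irf4 was 213, 88.2 and 371 CPM against 275, 283 and 439 CPM. Their log2 differences were 1.85 ± 0.72 and -0.72 ± 0.41, with Tnfrsf13b at 1.42 and Edem1 at -0.39. Of 11 germinal center and class switching genes, 6 could be tested and 4 were above 0, with a median of 0.17. Bcl6, the master factor of the germinal center, was highest at 1.38 ± 0.86, and Basp1 and Fas were lowest at -0.42 and -0.09.

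The 5 follicular genes were all above 0, with a median of 1.16, and Ccr7, a receptor that guides lymphocytes into lymph nodes, was highest at 1.64. It was at 0 CPM in heart 5 and above each IL-33+ heart in hearts 4 and 6. Fcer2a, the low-affinity IgE receptor, was at 0.43 and Cxcr5 at 0.05. Of 10 marginal zone and B1 genes, 8 could be tested and 3 were above 0, with a median of -0.21. Bhlhe41 and Plscr1 were highest at 1.33 and 1.17, and Cd9 and Mzb1 were lowest at -0.43 and -0.36. Of the 7 other constant and surrogate light chain genes, 1 passed the filter, Vpreb3, at 1.28 ± 0.92. None of these differences passed the test.

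Over the 14 types, the genes most like Igkc in level were Cd79b (Pearson r = 0.98), Blk (0.98), Fcrl1 (0.97), Pax5 (0.96) and Fcer2a (0.95), out of 11579 genes with at least 50 UMIs. For Ighm they were Cd79a (0.96), Mzb1 (0.96), Fcrla (0.95), Cd22 (0.95) and Bank1 (0.94), and for Iglc2 Fcmr (0.99), Bank1 (0.99), Fcer2a (0.99), Pax5 (0.99) and Chst3 (0.98). Jchain had weaker counterparts, Etnk1 (0.90), Kdm5c (0.84), Kdm3b (0.83), Ptbp2 (0.83) and Itgb3 (0.82), none of them a gene specific to B cells. These correlations describe 14 type means from 1 pooled library, in which depth differs between types.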

How the data were processed

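scRNA-Seq of 6 hashtagged hearts (3 per group) was analysed, 1 pooled library prepared with a 3′ kit. Per the paper's methods and the submitters' processing notes, the authors aligned reads to mm10 with Cell Ranger, filtered cells on UMIs, genes and mitochondrial content, annotated types from expression in Partek 10.0.23.0425, and deposited log2(CPM + 1) per cell. UMIs were recovered from each cell's smallest step. Of low values, 99.9% lay within 0.05 of a whole UMI. Cells held 1500 to 14977 UMIs. Hearts came from the hashtag table of the series, and no barcode was shared between hearts. The hearts are the replicates. Whether each came from a separate recipient is taken from the hashtag labels.

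Mean CPM per heart and type was tested as log2(mean CPM + 10) with limma 3.58.1 (R 4.3.3; lmFit, eBayes with trend), for genes with 10 UMIs in all and a UMI in 3 hearts, with Benjamini-Hochberg adjustment over all genes of the type and a threshold of 0.05. Fold changes of low genes are understated on this scale. Values per heart were compared by exact two-sided permutation tests. Shares were computed as the chance of at least 1 UMI after thinning to 1500 UMIs (scipy 1.17.1). Intervals are Clopper-Pearson and, like limits for a count of 0 (3 counts), cover counting error only. Scrublet (scanpy 1.11.5) marked 3 cells and was taken not to have worked, so the 266 highest scores (6%) were left out as an alternative, none of them B cells. The script was tested on simulated data. Sequences and coordinates are from GRCm38 (GENCODE vM21, RefSeq).

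The genes named were all 10 members, and of each B lineage list every gene called or otherwise the 2 highest and 2 lowest differences, except that some genes are not reported here. The 5 genes most alike in level were named for Ighm, Igkc, Iglc2 and Jchain. Members and lists were chosen with earlier results of these data known.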

Additional observations from a re-analysis of the deposited data

How the results depend on the processing

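No paired analysis was possible because the heart numbers do not pair a heart of 1 group with a heart of the other. The count of members called in B cells was 0 under all alternatives run, including each heart left out (0 to 0). Outside B cells it was 0, except for 1 call without the filter on low genes, Ighm in cDCs (log2 difference 2.07, adjusted p = 0.000809 by limma). Over the other alternatives its adjusted p ran from 0.0561 to 1.00. Calls among B lineage list genes in B cells, 0 as reported, were 2 without the filter and 0 to 3 with each heart left out. The cause was not tested.

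In B cells, Ighg1 turned from -0.41 to 0.0183 under upper quartile scaling and to 0.60 without hearts of few cells. Igha turned from 0.20 to -0.0605 at a pseudocount of 50 CPM and to -0.106 with summed UMIs. With each heart left out, Ighg1 ranged from -1.31 to 0.60 and Igha from -0.81 to 1.15, the Ighd share difference from -1.38 to 1.55 percentage points, and the difference in switched UMI share from -12.5 to 5.27 percentage points.

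Of the 10 members, those whose groups did not overlap fell to 0 when 2 UMIs were required, in B cells (from 2) and in other cells (from 1). Without the top doublet scores they rose to 2 for CPM outside B cells and to 1 for CPM over all cells. In the fits per type the groups did not overlap for 9.82% of all genes. The share over all genes was not computed for these values per heart, so the changes in count are not read as effects of the processing.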
